A study of Mus musculus with 2 samples.

Results

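The acyltransferases examined here were the 9 genes Gpam, Agpat1 to Agpat6, Dgat1 and Dgat2, which together encode enzymes of every fatty acid transfer on the route from glycerol-3-phosphate (G3P) to triglyceride (TG). They were taken by gene name from the 27962 names on the arrays, a rule that uses no measured value, and were represented by 19 probes of 60 bases. All 9 were among the 16732 genes tested. Liver RNA came from male apoE-KO mice of strain C57BL/6, which lack apolipoprotein E in every cell and in which lipoprotein remnants accumulate in plasma. From 10 weeks of age and for 1 week, the mice received either normal chow or the high-Chol diet, in which the chow contained 1.25% cholesterol (Chol). Each diet was represented by 3 single-colour arrays from independent experiments, and no wild-type mice were included. The labels do not tie an array to a replicate number, so the array numbers used here follow slide and position. Whether an array held RNA of 1 mouse or of several was not given in the sources used here, so that p-values measure the spread between these arrays.

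TG is assembled in the endoplasmic reticulum by adding fatty acids to glycerol-3-phosphate in turn. Glycerol-3-phosphate acyltransferases (GPAT) add the first, 1-acylglycerol-3-phosphate acyltransferases (AGPAT) add the next to give phosphatidic acid, lipins remove the phosphate, and diacylglycerol acyltransferases (DGAT) add the last. In the liver this route supplies the TG of lipid droplets and of very low-density lipoprotein, and its intermediates phosphatidic acid and diacylglycerol are also precursors of phospholipids.

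None of the 9 genes was called different between the diets. In the main treatment Dgat2 had the largest difference, a log2 value of -0.58 ± 0.25 (SE, n = 3 per diet), and 2 further Dgat2 probes gave -0.87 and -0.84. With the slide of the arrays as a block, these 2 probes gave -0.50 and -0.41. Another member had the largest difference with this block, a normexp background or quantile normalization, or without high-Chol array 2. Gpam, Dgat1 and Agpat1 had smaller differences below 0, and Agpat2 was the gene with the largest difference above 0, at 0.36. These 5 genes kept the sign of their difference under the 13 alternative treatments that gave distinct values, and Agpat3, Agpat4, Agpat5 and Agpat6 did not.

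All 3 normal chow arrays and high-Chol array 1 lay on slide 1, and high-Chol arrays 2 and 3 on slide 2. The 75th percentile of the spot signal was 271 to 373 on slide 1 and 762 to 799 on slide 2, and 50.5% to 67.3% of the spots were well above background. Values are log2 of an array's signal relative to that percentile, unless another scale is named. The only Apoe probe passed the background test of every array, at 1.66 to 3.81, but both diets carry the knockout and the position of the probe relative to the deleted part was not given, so it checks no label. Of 8 hepatocyte markers 7 were measured. Their summed signal, in multiples of the 75th percentile, was 2028 to 2306 with normal chow and 1496 to 1792 with high-Chol feeding. This sum rests mostly on the brightest markers, Alb and Fgb. By gene, 6 had a difference below 0, and Ttr was higher without overlap (0.48). With a normexp background these 6 lay between -0.26 and -0.01, and Ttr was 0.75. The sum of 7 of 8 macrophage markers was 91.2 to 116 with normal chow and 249 to 335 with high-Chol feeding, and it rested mostly on Lyzs. Emr1 had no value on high-Chol array 2, where 6 were summed. Limma called 3 of the 7 higher (Cd68, Marco and Lyzs), beside 2.69% of all genes. All 7 had a difference above 0, and the diets overlapped for Csf1r (0.28). Of the adipocyte markers, Adipoq and Lep were not well above background on all arrays of either diet. The other 3 summed to 1.42 to 1.54 with normal chow and 0.509 to 1.93 with high-Chol feeding. Of these 3, Cidec was the brightest and was lower without overlap (-0.72), while the dim Plin and Cfd were higher with overlap (0.89 and 1.15). Cholangiocyte markers summed to 13.4 to 16.7 with normal chow and 9.31 to 12.3 with high-Chol feeding. In the same order, endothelial markers gave 7.43 to 9.37 and 9.55 to 10.3, and stellate markers 5.24 to 7.65 and 5.80 to 8.13. Lymphocyte markers gave 0.58 to 0.70 and 0.60 to 1.04. In bulk liver, fewer cells of a type and less RNA per cell cannot be told apart, and the part of these marker shifts in the values below was not tested.

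Gpam and Agpat6 encode the enzymes of the first step. Gpam is GPAT1 of the outer mitochondrial membrane, a well-known target of the lipogenic factor SREBP-1c, and the gene named Agpat6 on the arrays encodes GPAT4 of the endoplasmic reticulum. The single Gpam probe (chr19:54985147-54985206 in mm7, minus strand) read -1.36, -1.35 and -0.77 on normal chow arrays 1 to 3, while the high-Chol arrays 1 to 3 gave -1.27, -1.55 and -1.89. High-Chol array 1 lay among the normal chow arrays, while the arrays of slide 2 lay below them. The difference was -0.41 ± 0.24 (SE; 95% interval -0.97 to 0.16; adjusted p = 0.352), a normal chow level 1.33-fold that of the high-Chol diet. Leaving out 1 array moved it between -0.56 and -0.21, with the value nearest 0 without normal chow array 3 and -0.25 without high-Chol array 3.

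Agpat6 was represented by 3 probes. Its brightest probe (chr8:21959057-21959116, minus strand) read 5.60, 6.38 and 6.31 on normal chow, where the high-Chol arrays had 5.58, 5.62 and 6.34. The low normal chow array lay beside the low high-Chol arrays and the high high-Chol array beside the high normal chow arrays, so the diets overlapped. The difference was -0.25 ± 0.29 (SE; 95% interval -0.95 to 0.44; adjusted p = 0.627), and it was 0.0303 with a normexp background. Leaving out 1 array moved it between -0.50 and -0.11. The other two probes gave -0.34 and -0.28. They are shown by the sequence of the second, which carries the codons of glutamate, glycine, threonine and cysteine (capitals), part of a block conserved in this acyltransferase family, and which the annotation places over 328 bases (chr8:21964777-21965104, minus strand), as for a probe that crosses an exon junction.
Agpat6 probe A_51_P335716: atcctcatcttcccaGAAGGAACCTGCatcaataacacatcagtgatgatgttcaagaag

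Agpat1 to Agpat5 belong to the next step and to related reactions. Agpat1 and Agpat2 encode the lysophosphatidic acid acyltransferases proper, and loss of AGPAT2 causes a congenital lipodystrophy in humans. The products of Agpat3, Agpat4 and Agpat5 act on lysophosphatidic acid or on other lysophospholipids. The Agpat1 and Agpat2 probes are printed because these isoforms of the same reaction had differences of opposite sign, as did other pairs of members. Capitals mark the codons of valine-proline-isoleucine-isoleucine-proline in the Agpat1 probe (chr17:32697034-32697183, plus strand) and of glutamate-glycine-threonine-arginine in the first Agpat2 probe (chr2:26603419-26603478, minus strand), both in conserved blocks of the family.
Agpat1 probe A_51_P322612: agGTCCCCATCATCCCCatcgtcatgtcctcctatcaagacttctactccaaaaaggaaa
Agpat2 probe A_51_P238565: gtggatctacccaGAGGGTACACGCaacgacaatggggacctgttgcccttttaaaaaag
Agpat2 probe A_51_P238563: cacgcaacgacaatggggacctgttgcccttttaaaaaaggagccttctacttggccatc
The Agpat2 probes share 40 bases, so they are close to repeat readings of a single stretch. In the letters as deposited, the frame of the block in the first Agpat2 probe meets a stop codon at base 53. In any frame of the probe strand, glutamate-glycine-threonine followed by arginine or cysteine was found in 20 of 41174 probes (0.0486%), 2 of them the Agpat2 and Agpat6 probes shown. The Agpat1 block was found in that probe alone of the 41174 (0.00243%). A match of this kind describes the letters of a probe and nothing about its signal.

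Agpat2 read 3.39, 3.01 and 3.29 on normal chow, compared with 3.77, 3.31 and 3.69 under the high-Chol diet. High-Chol arrays 1 and 3 were above all normal chow arrays, and array 2 lay among them. The difference was 0.36 ± 0.19 (SE; 95% interval -0.09 to 0.81; adjusted p = 0.309), or 1.29-fold. The second probe gave 0.19, and -0.05 when arrays were scaled to their median.

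Agpat1 read -0.58, -0.80 and -0.76 on normal chow, and the high-Chol arrays gave -1.35, -0.93 and -0.58. High-Chol arrays 1 and 2 were below all normal chow arrays, the array of slide 1 by more, and array 3 was equal to the highest of them to 2 decimals. The difference was -0.24 ± 0.22 (SE; 95% interval -0.76 to 0.28; adjusted p = 0.528), and it was -0.04 without high-Chol array 1. The second probe (chr17:32698785-32698844, plus strand) gave -0.24.

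Agpat3 had the tightest normal chow values of the 9 genes. It read 5.13, 5.16 and 5.16 on normal chow, and 4.87, 4.75 and 4.98 with high-Chol feeding. All high-Chol arrays were below all normal chow arrays, on slide 1 as well as on slide 2. The difference was -0.29 ± 0.14 (SE; 95% interval -0.62 to 0.05; adjusted p = 0.282) but 0.0315 with a normexp background. A two-sided exact permutation test over the 6 arrays gave p = 0.1, the smallest this design allows. The second probe gave -0.22, with overlap between the diets.

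By their brightest probes in the main treatment, Agpat4 and Agpat5 had the smallest differences, an order that changed with the treatment. Agpat4 read -0.45, -0.33 and -0.21 on normal chow, and -0.03, -0.01 and -0.26 with high-Chol feeding. The Agpat4 difference was 0.23 ± 0.15 (SE; 95% interval -0.13 to 0.59), but -0.0037 on the scale of the array median. Its probes share 54 bases, and the second gave 0.17. Agpat5 read 1.66, 1.46 and 1.54 on normal chow, and the high-Chol arrays had 1.45, 1.83 and 1.72. The diets overlapped for both genes. The Agpat5 difference was 0.11 ± 0.16 (SE; 95% interval -0.27 to 0.49), and its dimmer probe gave 0.42 with a wider interval of -0.22 to 1.06. The Agpat5 value was -0.12 on the scale of the array median and -0.10 with slide as a block.

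**Figure D1:**
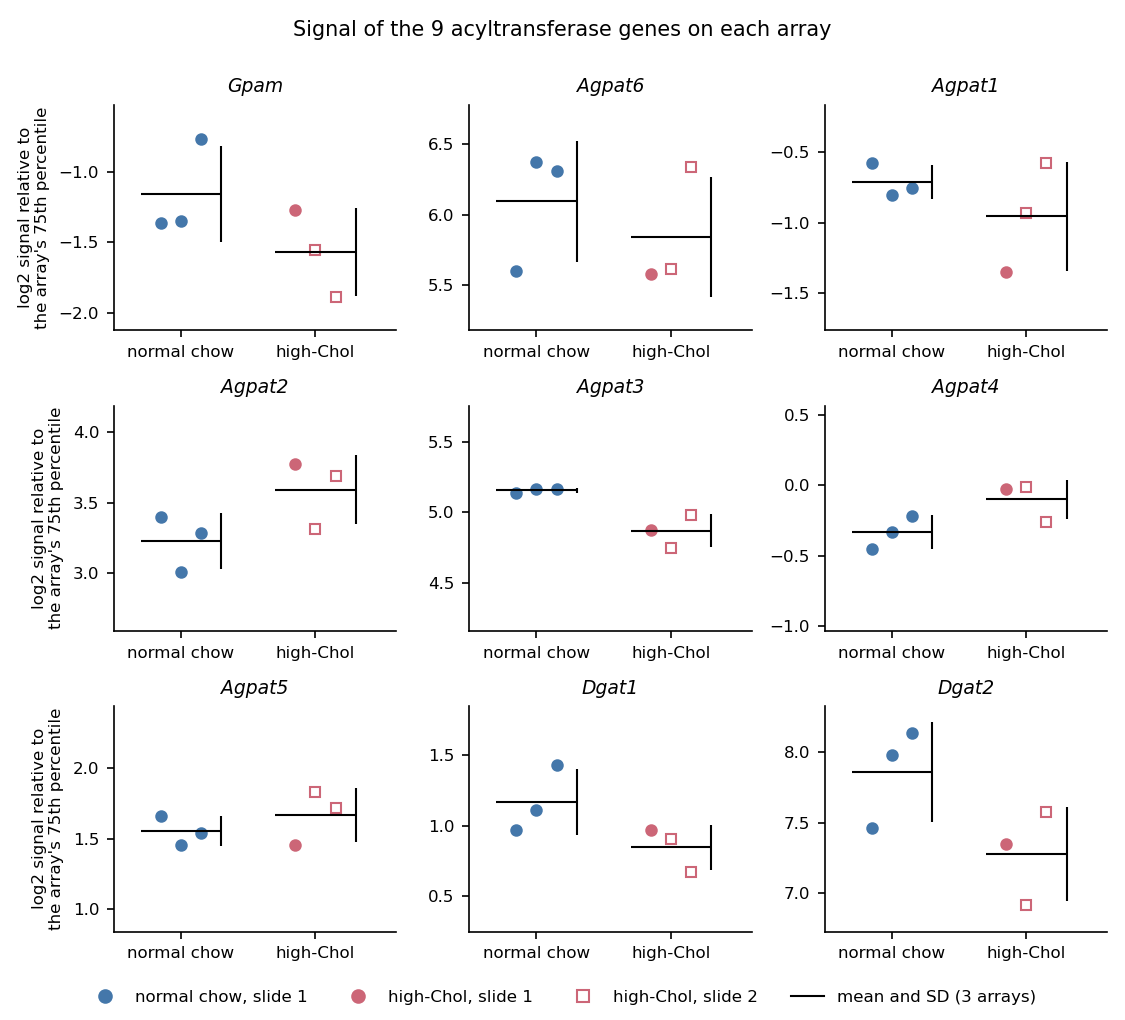
Log2 signal relative to the 75th percentile of the array for the brightest probe of each of the 9 genes, with normal chow in blue, high-Chol in red, slide 1 as filled circles and slide 2 as open squares, and the mean and SD of 3 arrays as black lines. All panels span the same height, so spreads can be compared, while levels cannot be compared between panels; only Agpat3 shows diets without overlap.

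Dgat1 and Dgat2 encode the enzymes of the last step, which belong to separate protein families. DGAT1 is a relative of the enzymes that esterify Chol, and DGAT2 is the isoform most closely tied to newly made fatty acids and to lipid droplets. Probes are printed for Dgat2, which had the largest differences of the 9 genes in the main treatment though not in every other, and for Dgat1 as its partner in the step. The annotation places the Dgat1 probes over 217 bases (chr15:76585614-76585830) and 147 bases (chr15:76585251-76585397), and the Dgat2 probe over 60 bases (chr7:95186444-95186503), all on the minus strand. The Dgat2 probe, read in its longest open frame, holds 17 codons, a stop codon (capitals) and 4 bases beyond it.
Dgat1 probe A_51_P510059: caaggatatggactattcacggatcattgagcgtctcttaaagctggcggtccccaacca
Dgat1 probe A_52_P456134: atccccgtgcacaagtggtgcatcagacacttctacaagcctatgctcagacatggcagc
Dgat2 probe A_52_P359739: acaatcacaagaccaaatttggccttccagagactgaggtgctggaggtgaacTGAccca

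The Dgat2 probe shown read 3.43, 3.80 and 4.004 on normal chow, where the high-Chol arrays gave 3.34, 2.42 and 2.95. All 3 high-Chol arrays were below all normal chow arrays, although high-Chol array 1 and normal chow array 1 were close to each other. The difference was -0.84 (95% interval -1.48 to -0.21; adjusted p = 0.169 over all probes), a normal chow level 1.79-fold that of the high-Chol diet. A probe further along the transcript (A_51_P396003, chr7:95186363-95186422) read 5.31, 5.72 and 5.99 on normal chow, and 5.17, 4.26 and 4.97 with high-Chol feeding, again without overlap. Its difference was -0.87 (95% interval -1.55 to -0.20; adjusted p = 0.173), or 1.83-fold. The third Dgat2 probe (A_52_P592909, chr7:95185607-95185666) lay further along still and was the brightest, so it stood for the gene.

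That brightest Dgat2 probe read 7.47, 7.98 and 8.14 on normal chow, compared with 7.35, 6.92 and 7.57 under the high-Chol diet. Here high-Chol array 3 was above normal chow array 1, and the diets overlapped. The difference was -0.58 ± 0.25 (SE; 95% interval -1.17 to 0.01; adjusted p = 0.240), or 1.495-fold. Across the 3 probes the 2 lowest arrays were always high-Chol arrays and the highest was always normal chow array 3. With slide as a block, the differences of the 3 probes were -0.41 (unadjusted p = 0.241, limma) for the probe shown, -0.50 (unadjusted p = 0.219) for the next and -0.51 for the brightest. Without the block, the brightest probe ranged from -0.78 to -0.40 when 1 array was left out.

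Dgat1 read 0.97, 1.11 and 1.43 on normal chow, and the high-Chol arrays 0.97, 0.90 and 0.67, with its brightest probe. High-Chol array 1 equalled the lowest normal chow array within rounding, and the arrays of slide 2 were below all of slide 1. The difference was -0.32 ± 0.18 (SE; 95% interval -0.75 to 0.11; adjusted p = 0.337), or 1.25-fold. The other Dgat1 probe read 0.56, 0.53 and 1.08 on normal chow, and 0.49, 0.16 and 0.04 with high-Chol feeding, without overlap. Its difference was -0.49 (95% interval -0.99 to 0.01; adjusted p = 0.258), and the block by slide gave -0.23. Leaving out 1 array moved the brightest probe between -0.42 and -0.19, the latter without normal chow array 3.

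Set beside all genes, the 9 had 0 calls lower, where limma called 0.227% of the 16732 genes, and 0 calls higher, where it called 2.69%. At an unadjusted p under 0.05, limma counted 0 of the 9 where 21.2% of all genes passed, and the methods' t-test counted 1, Agpat3, where 16.7% passed. This count depended on the scale: with median scaling limma counted 4 of the 9 (Agpat1, Agpat3, Dgat1 and Dgat2, all below 0) where 25.7% of all genes passed, and with a normexp background 0 where 1.83% passed. On the scale of the array median the calls over all genes divided into 73 lower and 329 higher, against 38 and 450 here. Diets did not overlap for 1 member in the lower direction and for 0 in the higher, where the shares of the 16440 genes with 6 values were 14% and 11.8%. No member was more than 1.5-fold lower or higher, compared with 5.84% and 15.4% of all genes. Of the 9 differences 6 were below 0, as were 52.2% over all genes, and the median was -0.25 against -0.02.

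By probe, limma called 0 of the 19 in either direction, beside 0.255% of 23926 probes lower and 2.36% higher, and 2 of the 19, both of Dgat2, had an unadjusted p under 0.05, where 20% of all probes had. With median scaling 5 of the 19 did, where 24.3% of all probes had, and with a normexp background 0 did, where 1.5% had. Diets did not overlap for 4 of the 19 probes in the lower direction and for 0 in the higher, beside 13.3% and 11.4% of all probes. The 4 were the Dgat2 pair, a Dgat1 probe and an Agpat3 probe. The probes of each gene had differences of the same sign. Each of the 19 was well above background on every array, and 0 were saturated. A probe's signal depends on its sequence as well as on the RNA, so the levels of different genes were not ordered.

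**Figure D2:**
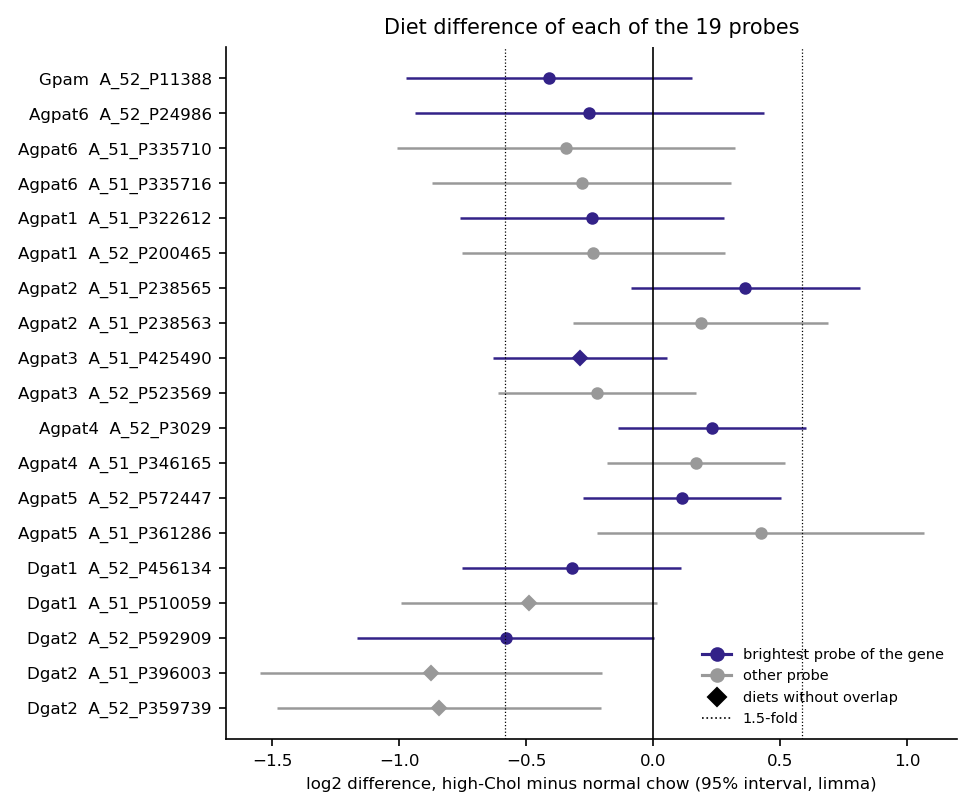
Log2 difference (high-Chol minus normal chow) of each of the 19 probes with its 95% interval from limma, where dark marks the brightest probe of a gene, diamonds mark probes whose diets did not overlap, and dotted lines mark 1.5-fold. The intervals of 2 Dgat2 probes, from -1.55 to -0.20 and from -1.48 to -0.21, lie wholly below 0, and those of the other 17 include 0; with slide as a block these 2 probes gave -0.50 and -0.41.

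Whether isoforms responded differently was examined by the log2 ratio of a pair within each array, which does not depend on how the array was scaled. The ratio of Agpat2 over Agpat3 was -1.74, -2.15 and -1.88 on normal chow, and the high-Chol arrays had -1.10, -1.43 and -1.29. All high-Chol arrays were above all normal chow arrays, by 0.65 on average (exact permutation p = 0.1, adjusted over 6 pairs p = 0.3). Agpat2 over Agpat1 was 3.97, 3.81 and 4.04 on normal chow, where the high-Chol arrays gave 5.12, 4.25 and 4.27. It too was without overlap, with a mean shift of 0.60 (exact permutation p = 0.1, adjusted p = 0.3), which was 0.32 without high-Chol array 1 and 1.18 on slide 1 alone. Both pairs have Agpat2 as the numerator, so they are not separate observations. The share of all gene pairs without overlap was not computed, and of single genes 14% were without overlap in the lower direction and 11.8% in the higher. The exact permutation test cannot go below 0.1 with 3 arrays per diet, so no pair could pass a threshold of 0.05 by it.

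For the remaining 4 pairs the diets overlapped. Dgat2 over Dgat1 shifted by -0.26 (exact permutation p = 0.5, adjusted p = 0.75), with SDs of 0.19 on normal chow and 0.45 with high-Chol feeding. It was -0.05 without high-Chol array 2, -0.50 without high-Chol array 3 and -0.05 with quantile normalization. Gpam over Agpat6, the pair of GPATs, shifted by -0.16 (exact p = 0.8), and by 0.41 on slide 1 alone. Agpat2 over Agpat4 and over Agpat5 shifted by 0.13 and 0.25 (exact p = 0.8 and p = 0.5). These values do not show that the isoforms of a pair acted alike.

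**Figure D3:**
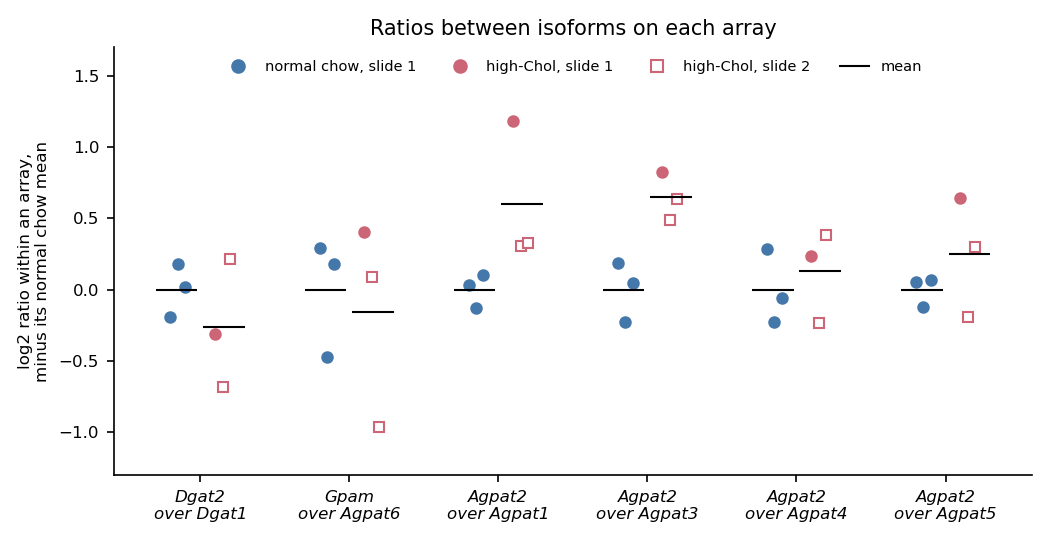
Log2 ratio of 2 isoforms on each array, less the normal chow mean of that ratio, for the 6 pairs compared (normal chow blue, high-Chol red, slide 1 filled circles, slide 2 open squares, black lines the means). The high-Chol arrays lie above all normal chow arrays for Agpat2 over Agpat1 and over Agpat3, with means of 0.60 and 0.65, and overlap with them for the other 4 pairs.

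The differences moved with the scale. Scaling to the array median moved the median of all genes to -0.26 and that of the members to -0.49, a distance of -0.23 between them, as on the 75th percentile scale. On the median scale Dgat2 was -0.82 (adjusted p = 0.142), Gpam was -0.65, and Agpat2 was 0.13. With a normexp background, the members' median and that of all genes were 0.03 and -0.11, Dgat2 was -0.28, and Agpat2 was 0.55. Quantile normalization gave -0.32 for Dgat2, -0.55 for Gpam and 0.51 for Agpat2. The table of values that the authors deposited, with 1 value per probe and diet, held all 19 probes, and the differences between its columns were -0.82 for the brightest Dgat2 probe and 0.12 for Agpat2. The median difference of that table over the genes tested was -0.28.

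**Figure D4:**
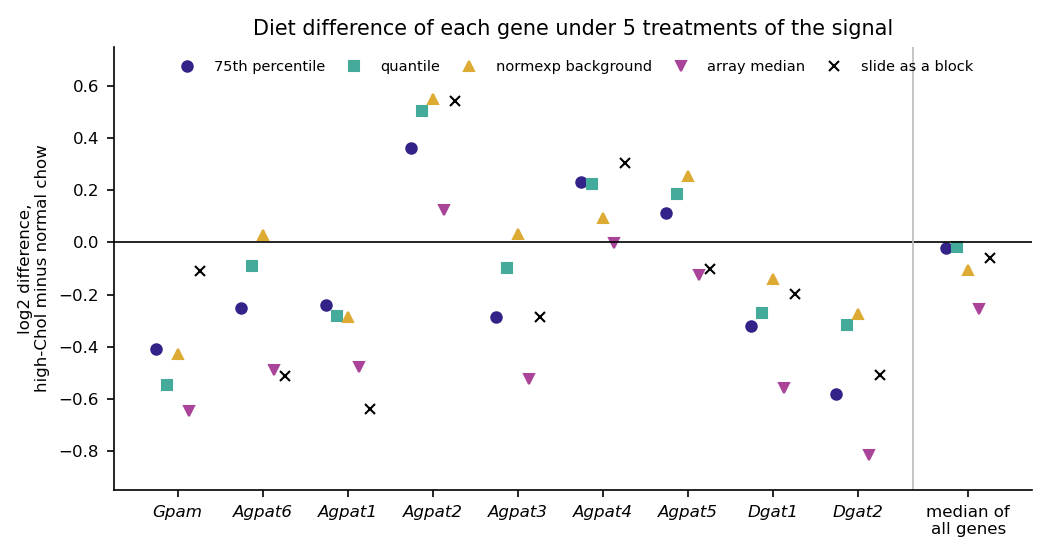
Log2 difference (high-Chol minus normal chow) of each of the 9 genes with the signal scaled to the 75th percentile, quantile normalized, corrected by normexp, scaled to the array median, or fitted with slide as a block, beside the median of all genes under each. Agpat2 lies above 0 throughout (0.13 to 0.55), Dgat2 below it throughout (-0.82 to -0.28), and Agpat3, Agpat4, Agpat5 and Agpat6 on both sides.

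With slide as a block the comparison rests on slide 1, where 1 high-Chol array faced 3 normal chow arrays. That 1 array has no spread of its own, so the p-values with the block rest on the spread of the other arrays. On that slide the high-Chol array was below all normal chow arrays for Dgat2, Agpat1, Agpat3, Agpat5 and Agpat6, and above them for Agpat2 and Agpat4. The margins were small for Agpat5 (1.454 against 1.458) and Agpat6 (5.58 against 5.60). How often 1 array lies outside 3 others over all genes was not computed, so this list is a description only. The blocked difference of the brightest Dgat2 probe was -0.51, against -0.58 without the block, but the other Dgat2 probes went from -0.87 to -0.50 and from -0.84 to -0.41. That of Agpat3 was -0.28, and -0.08 for its second probe. The blocked difference of Agpat1 was -0.64 with its brightest probe (unadjusted p = 0.0278, adjusted p = 0.470) but -0.28 with its second, close to the unblocked -0.24. That of Agpat6 was -0.51 with its brightest probe, while its other probes went from -0.34 to -0.25 and from -0.28 to -0.40. The blocked difference of Agpat2 grew to 0.54, and to 0.50 for its second probe. Gpam went the other way, to -0.11, and Dgat1 to -0.20. Limma called 0 of the 9 with the block, and 1 of the 9, Agpat1, had an unadjusted p under 0.05, where 9.1% of all genes had.

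Other enzymes of the G3P pathway, and of reactions next to it, were read beside the 9. The list of 16 genes also holds a further GPAT, the monoacylglycerol route and other reactions outside the G3P steps. Of these 16 genes 14 were tested, 12 with a difference below 0 and 2 above it, with a median of -0.20. Limma called 0 of the 14, beside 0.227% of all genes lower and 2.69% higher, and counted 3 at an unadjusted p under 0.05, beside 21.2%. Beside 5.84% of all genes, 4 (Lpin1, Ppap2b, Gpd1l and Lpin2, the last with 2 high-Chol values) were more than 1.5-fold lower. Lpin1, the phosphatidic acid phosphatase between the AGPAT and DGAT steps, had the largest difference, with 3.92, 6.07 and 6.28 on normal chow, and 3.14, 3.15 and 1.34 with high-Chol feeding. Its difference of -2.88 ± 0.74 (SE, adjusted p = 0.102) was the only one in the list beyond 2-fold, and its diets did not overlap. Mogat1, which makes diacylglycerol from monoacylglycerol, had the largest difference above 0 (0.53, adjusted p = 0.376) and was -0.17 with slide as a block. Agpat9, which encodes GPAT3 and was matched by its accession, gave -0.10, and -0.88 with slide as a block.

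Among 11 acyltransferases that act on other lysophospholipids, on cardiolipin or in ether lipid synthesis, 9 were tested, 6 of them with a difference below 0, and the median was -0.23. With slide as a block the median was -0.04. Limma called 1 of the 9, beside 2.69% of all genes called higher and 0.227% lower. It was Lpcat1 (named Aytl2 on the arrays), which encodes a lysophosphatidylcholine acyltransferase prominent in lung surfactant. It read -3.53, -3.59 and -3.49 on normal chow, and the high-Chol arrays had -2.42, -2.42 and -2.35. It was thus higher by 1.14 ± 0.13 (SE, adjusted p = 0.00985), and by 1.11 with slide as a block, but its value was -0.16 with a normexp background. The probe was dim, and its sign differed between the background treatments. The largest difference below 0 was that of Lpgat1 (-0.49, adjusted p = 0.185), whose diets did not overlap.

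**Figure D5:**
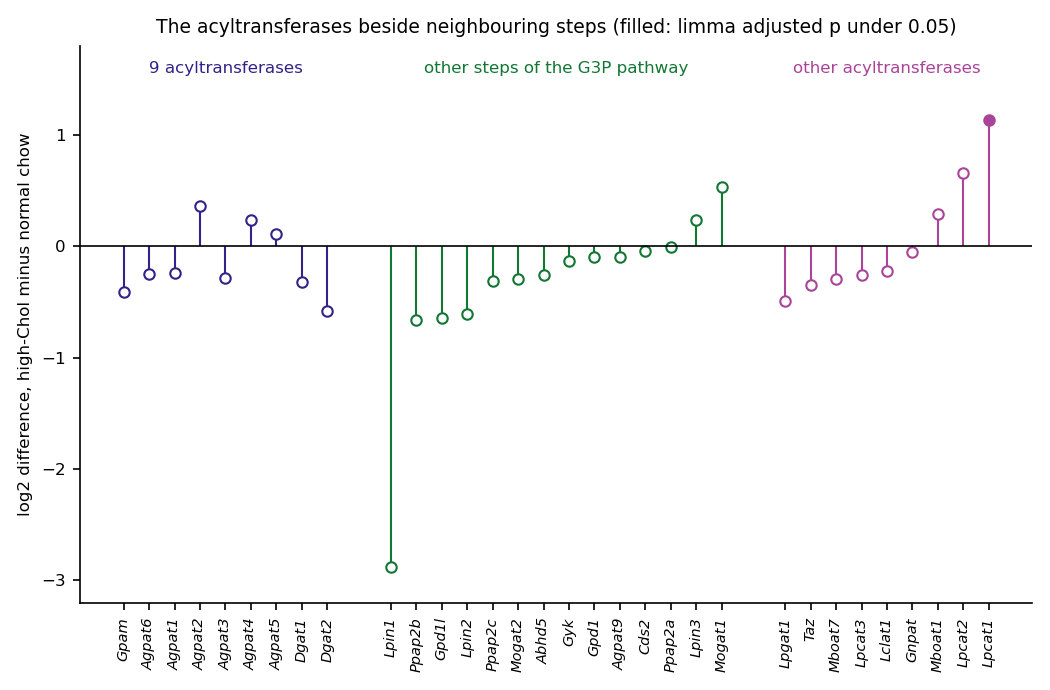
Log2 difference (high-Chol minus normal chow, 75th percentile scale) of the 9 acyltransferases, of 14 genes of the G3P pathway and of reactions next to it, and of 9 other acyltransferases. The 14 are labelled as other steps of the G3P pathway but include the monoacylglycerol route. Filled points are genes at a limma adjusted p under 0.05. The 9 lie between -0.58 and 0.36, Lpin1 stands at -2.88, and the only filled point is Lpcat1 at 1.14.

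The genes whose profile over the 6 arrays came nearest to a member, each taken about its own mean, are given as a description among 16440 genes with 6 values. Nearest to Dgat1 was Zfp191 at a root mean square difference of 0.03 log2 units, within a range of 0.76 for Dgat1 itself. Nearest to Agpat3 was Mrpl41 at 0.02, within a range of 0.42, and Cps1 of the urea cycle was also near Agpat3, at 0.03. A gene of small range has small differences of this kind, so they do not rank the members by closeness. The nearest profiles to Dgat2 were 4432416J03Rik at 0.06, Srm at 0.08 and Tbc1d16 at 0.08, within a range of 1.22 for Dgat2 itself. Nearest to Agpat2 was Dbnl at 0.07, to Agpat1 Oraov1 at 0.06, to Agpat4 Ccdc23 at 0.04 and to Gpam Lemd2 at 0.07. Agpat6 was nearest to 4833416E15Rik at 0.07, and Agpat5 to a probe without a gene name at 0.03. No member was among the 3 nearest profiles of another.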

How the data were processed

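The authors hybridized cyanine-labeled liver cRNA to Agilent 4×44K mouse arrays and deposited the scanner intensity of each of 6 arrays, background-subtracted by Feature Extraction (version 9.1 per the labels, 9.5 in the headers of slide 1), and log2 values from Gene Spring GX, a single value per probe and diet for 23458 probes. These log2 values were centred near 0 on normal chow (column medians -0.0019 and -0.273), and the centring method is not given in the sources used here. From the deposited intensity, log2 was taken and the 75th percentile of the non-control spots of the array was subtracted. Control spots (1639) and outlier spots (75 to 196 on an array) were dropped, and repeated spots were averaged. Probes had to be well above background on every array of 1 diet or of both, and a gene was read from its brightest probe. The number of arrays limits the precision.

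Diets were compared with limma 3.58.1 (lmFit and eBayes, no covariate) in R 4.3.3 with data.table (version 1.17.8), with Benjamini-Hochberg adjustment over all genes, or over all probes, at a threshold of 0.05. Ratios of 2 genes within an array were compared by two-sided exact permutation tests over the 6 arrays, which cannot go below p = 0.1. Plots used Python 3.11.15, matplotlib 3.10.9, pandas 2.3.3 and numpy 2.4.6. On simulated data made from 16440 genes of this comparison, the limma step called 33 of 94 genes changed 2-fold and 80 of 106 changed 4-fold, with 9 false calls. The simulated arrays were independent and held no slide effect, so these counts do not cover the slide layout of the data. Changes below 2-fold were not simulated. The members, lists and tests were chosen with earlier results of these data known. Named genes were all 9 members, list genes called by limma or with the largest difference in each direction, and among the 3 nearest profiles of each member. Apoe, the cell type markers and, of the list genes, Agpat9, Gpd1l, Ppap2b and Lpin2 are named outside this rule, the last 4 after their values were seen. Of 64 list genes 61 were matched to the arrays. Coordinates come from the array design (mm7), and no genome or protein sequence was used here. Alternatives were a normexp background (offset 50), median scaling, quantile normalization, other filters and probe choices, slide as a block, leaving out each array, the methods' t-test and the authors' values.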

Additional observations from a re-analysis of the deposited data

How the results depend on the processing

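No alternative led limma to call any of the 9 genes. Of 17 alternatives 3 leave the members' differences as they were by construction (both other filters and the methods' t-test), and slide 1 alone repeats the values with slide as a block. For the brightest probes, leaving out 1 array never changed the sign of a member's difference. No paired analysis was possible because the labels number the replicates of both diets 1 to 3 without saying which array is which. Members more than 1.5-fold lower numbered 0, but 2 with median scaling, 2 in the authors' values, 1 each with the mean of probes, slide as a fixed block and slide 1 alone, and 0 to 1 when an array was left out. The median of the members, -0.25, was 0.0303 with normexp, -0.49 with median scaling, -0.10 with quantile normalization, -0.49 in the authors' values and -0.30 to -0.12 when an array was left out. Over all genes, 38 were called lower and 450 higher by limma. Normexp gave 0 and 0 (39 and 267 at an unadjusted p under 0.05), median scaling 73 lower, no filter 0 (1278 unadjusted) and 26, slide as a fixed block 0 (578 unadjusted) and 11, as a random block 9 and 254, slide 1 alone 1 and 3, and the methods' t-test 1 and 4. Leaving out an array gave 0 to 761 lower and 42 to 2316 higher. The highest counts came without high-Chol array 1, where diet and slide cannot be told apart, and the lowest (0, with 770 unadjusted, and 42) without normal chow array 2.

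Signs changed as follows. With normexp, Agpat3 was 0.0315 (its second probe 0.0024), Agpat6 0.0303 (another probe 0.0088), the second Agpat4 probe -0.0783 and the dimmer Agpat5 probe -0.40. With median scaling, Agpat4 was -0.0037 (second probe -0.0696), Agpat5 -0.12 and the second Agpat2 probe -0.0503. With slide as a block or slide 1 alone Agpat5 was -0.10, and in the authors' values Agpat4 was -0.01 (second probe -0.08), Agpat5 -0.13 and the second Agpat2 probe -0.06. The ratio of Gpam over Agpat6 was -0.16 in the main treatment, 0.41 on slide 1 alone, and from -0.44 to 0.25 when an array was left out, the last without high-Chol array 3. The causes of these changes were not tested.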
